A study of Homo sapiens with 6 samples.

Results

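The hypoxia-inducible factors and a set of their targets outside glycolysis were followed in PC3 cells in which VprBP had been depleted. The set was given as a list of 10 gene symbols, HIF1A, EPAS1, STC1, CA9, CA12, ADM, BNIP3, EGLN1, EGLN3 and NDRG1, and all 10 were found among the 12227 genes of the deposited table. PC3 is an established human cell line derived from a bone metastasis of prostate cancer. One group of 3 libraries came from PC3 cells carrying a control short hairpin RNA (shRNA), genotype WT in the labels, and the other group of 3 from cells with shRNA against VprBP, genotype VprBP knockdown. VprBP, the product of DCAF1, brings substrates to the CRL4 ubiquitin ligase. Both groups were grown in DMEM with serum, and the labels name no hypoxic culture. They do not say whether sh1 to sh3 are hairpins, cultures or repeat libraries, so the p-values cover no more than the spread among these 6 libraries, part or all of which may be technical.

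A hypoxia-inducible factor (HIF) is a heterodimer of an oxygen-regulated alpha subunit, HIF-1 alpha from HIF1A or HIF-2 alpha from EPAS1, and a stable beta subunit from ARNT or ARNT2. When oxygen is present, the prolyl hydroxylases encoded by EGLN1, EGLN2 and EGLN3 hydroxylate the alpha subunit, and the VHL ubiquitin ligase then marks it for degradation. The factor is therefore controlled mostly at the protein level, which RNA sequencing does not measure. When the alpha subunit is stable, the dimer binds a short core, ACGTG or GCGTG, in hypoxia response elements and activates genes of pH control, survival, angiogenesis and metabolism.

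RefSeq promoters (GRCh38.p14) were matched for 8 of the 10 genes, all but STC1 and NDRG1. In the 250 bases before the start, 7 of these 8 genes held at least 1 ACGTG or GCGTG on either strand, EGLN3 being the exception. HIF1A has a further RefSeq start, whose window held no match. Of all 35116 RefSeq promoter windows of that length, 43.2% held at least 1 such match, 18.5% for ACGTG and 32.2% for GCGTG. The 6 windows below are of genes that rose and held a core (BNIP3, CA9, EGLN1 and ADM), and of CA12 and EGLN3. CA12 held a core and fell, and EGLN3 held none and was not called. Not printed are HIF1A, which held a core and fell, and EPAS1, which held a core and was not called. A link between a core and a rise was not tested. They read 5′ to 3′ on the strand of the gene, with the core letters in capitals on whichever strand they match. CACGT and CACGC are the cores read from the other strand.
BNIP3 (chr10:131981924-131982173, minus strand): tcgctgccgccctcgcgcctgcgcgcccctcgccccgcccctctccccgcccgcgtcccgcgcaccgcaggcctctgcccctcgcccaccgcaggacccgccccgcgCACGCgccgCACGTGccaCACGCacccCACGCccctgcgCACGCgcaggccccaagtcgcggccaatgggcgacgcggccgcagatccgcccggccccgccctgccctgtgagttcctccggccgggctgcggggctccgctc
CA9 (chr9:35673678-35673927, plus strand): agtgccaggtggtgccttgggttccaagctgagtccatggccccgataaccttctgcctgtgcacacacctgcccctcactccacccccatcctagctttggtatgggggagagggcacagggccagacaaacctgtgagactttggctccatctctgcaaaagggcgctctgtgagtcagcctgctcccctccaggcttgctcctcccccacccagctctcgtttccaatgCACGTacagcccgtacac
EGLN1 (chr1:231422288-231422537, minus strand): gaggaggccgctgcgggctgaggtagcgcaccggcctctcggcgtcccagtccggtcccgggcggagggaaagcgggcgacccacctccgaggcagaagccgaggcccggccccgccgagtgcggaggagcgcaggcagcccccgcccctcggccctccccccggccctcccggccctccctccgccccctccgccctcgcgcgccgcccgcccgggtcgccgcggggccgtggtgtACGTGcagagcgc
ADM (chr11:10304823-10305072, plus strand): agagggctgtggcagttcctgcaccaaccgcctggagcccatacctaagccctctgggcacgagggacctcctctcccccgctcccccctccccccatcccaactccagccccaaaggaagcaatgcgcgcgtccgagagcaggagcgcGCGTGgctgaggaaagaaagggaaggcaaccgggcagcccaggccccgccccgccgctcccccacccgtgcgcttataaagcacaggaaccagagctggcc
CA12 (chr15:63381847-63382096, minus strand): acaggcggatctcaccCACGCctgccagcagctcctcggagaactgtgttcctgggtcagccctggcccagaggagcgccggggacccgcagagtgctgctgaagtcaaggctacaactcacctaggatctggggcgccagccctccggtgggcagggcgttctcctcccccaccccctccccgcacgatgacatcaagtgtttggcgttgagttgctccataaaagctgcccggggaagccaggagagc
EGLN3 (chr14:33951075-33951324, minus strand): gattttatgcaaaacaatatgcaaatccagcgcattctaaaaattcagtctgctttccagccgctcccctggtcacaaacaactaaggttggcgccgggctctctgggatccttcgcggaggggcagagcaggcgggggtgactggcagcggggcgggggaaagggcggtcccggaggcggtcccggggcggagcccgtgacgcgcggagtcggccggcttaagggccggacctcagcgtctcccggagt
The BNIP3 window held 6 matches, a number reached by 0.646% of all windows. The cores are rich in G and C, and so are these windows: the GC content was 81.6% for BNIP3 and 60.4% to 81.2% for the first windows of the other 7 genes, against a median of 58% over all windows. The shares of all windows are not matched for it. Of the 6 BNIP3 matches, 2 overlap as the palindrome CACGTG, which also is the core of an E-box. The ACGTG of EGLN1 began 13 bases before the start, and that of CA9 lay 18 bases before it on the other strand. ADM held GCGTG 101 bases before its start, and CA12 held it at 234 bases on the other strand. HIF1A and EPAS1 each held a single GCGTG, at 204 and 117 bases. These matches describe letters only and do not show binding.

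**Figure D1:**
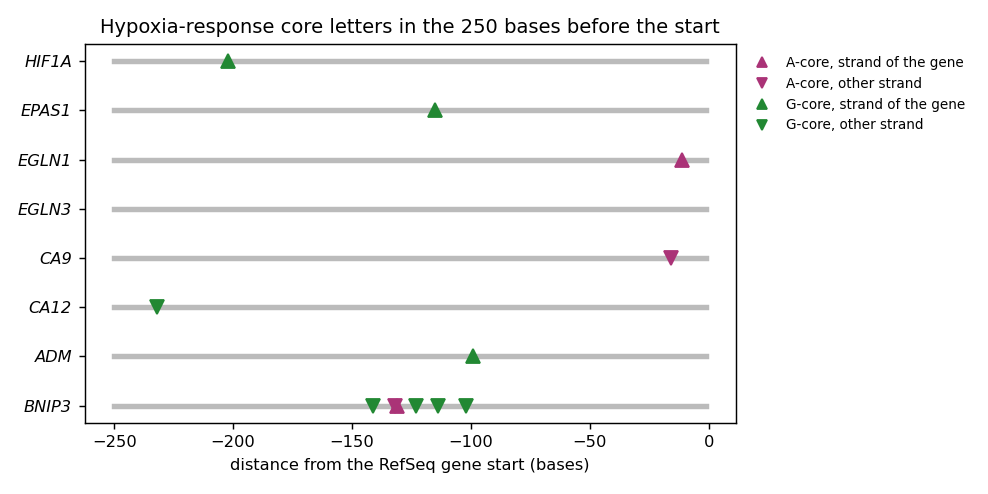
Positions of the core letters in the 250 bases before the RefSeq start of 8 genes, with distance from the start in bases on the x axis. Purple marks ACGTG and green GCGTG, and triangles point up for the strand of the gene and down for the other strand. The 6 matches of BNIP3 cluster between 104 and 143 bases before the start.

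The values are scaled estimated reads per gene, explained with the processing. A gene was called when its limma adjusted p, over all 12227 genes, was under 0.05. Depth was 22981872 to 32293202 estimated reads in control libraries and 23029458 to 39633909 in knockdown libraries. DCAF1 checked the labels: it was 79.4, 78.5 and 78.7 in the control libraries and 38.5, 41.1 and 40.2 in the knockdown libraries, a log2 fold change of -0.97 (SE 0.05) with a limma adjusted p of 3.56e-11. Chi-square per degree of freedom, a measure of how far a pair of libraries differs beyond counting noise, was 6.26 and 6.69 for knockdown replicate 3 with each library of its group and 3.39 to 3.85 for the remaining within-group pairs. Mitochondrially encoded transcripts made up 5.53% to 5.65% of the summed values in control libraries and 4.51% to 4.78% in knockdown libraries, and their part in the results was not tested. The epithelial genes EPCAM, CDH1, KRT8, KRT18 and KRT19 were listed at values over 200 in every library. The luminal genes KLK3 and KLK2 were not listed. Of 24 leukocyte, endothelial and fibroblast markers, 3 were listed, and PTPRC, CDH5, VWF, COL1A2 and DCN were not. These were CD68 at 25.6 to 26.9, COL1A1 at 20.6 to 28.7 and PECAM1 at 53.0 to 55.2 in control and 22.6 to 24.0 in knockdown libraries. Whether such a difference means fewer cells of a type or less RNA per cell cannot be told from bulk RNA, here or below.

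Of the 10 genes, 6 rose in knockdown cells (STC1, CA9, ADM, BNIP3, NDRG1 and EGLN1), 2 fell (CA12 and HIF1A) and 2 were not called (EPAS1 and EGLN3). Among all genes tested, 33% were called higher and 27.8% lower, 60.9% in all. Without knockdown replicate 3 the counts were again 6 and 2. The control and knockdown libraries did not overlap for 8 of the 10 genes, against 64.8% of all genes. The median log2 fold change was 0.69 over the 10 genes and 0.02 over all genes. At least 2-fold increases were called for 4 of the 10, STC1, CA9, ADM and BNIP3, against 2.05% of all genes. For each of the 8 called genes an exact two-sided permutation test over the 20 assignments of the libraries gave p = 0.1, the smallest that 3 against 3 allows.

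**Figure D2:**
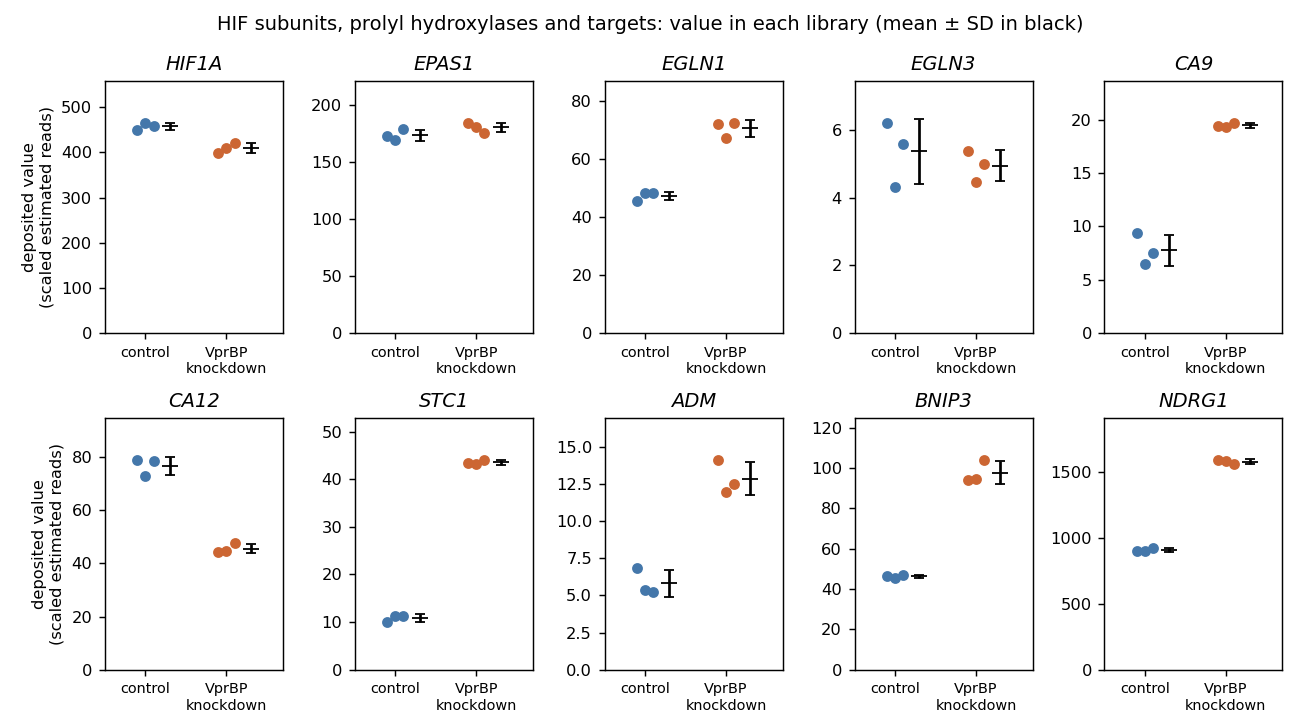
Value of each of the 10 genes in each library (y axis, scaled estimated reads, from 0), with 3 control libraries in blue, 3 knockdown libraries in orange, and the mean ± SD in black. Control and knockdown points overlap only for EPAS1 and EGLN3.

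The alpha subunits moved little. HIF1A, which encodes the broadly expressed HIF-1 alpha, was 450, 465 and 459 in control replicates 1 to 3 and 399, 410 and 420 in knockdown replicates 1 to 3. Every knockdown library lay below every control library, but by a small margin. The means were 458 ± 7.84 and 410 ± 10.4 (SD, n = 3 each), a fall of 10.5%. This was a log2 fold change of -0.16 (SE 0.03; limma adjusted p = 0.000398), and 27.9% of all genes had one as low or lower. EPAS1, which encodes HIF-2 alpha, gave 173, 169 and 179 in control libraries and 184, 181 and 176 in knockdown libraries. These ranges overlap, with knockdown replicate 3 below control replicate 3. The log2 fold change of 0.05 (SE 0.04, limma adjusted p = 0.209) had a 95% interval from -0.02 to 0.13. The HIF1A to EPAS1 ratio, on a log2 scale, was 1.40 ± 0.0528 in control and 1.19 ± 0.0704 in knockdown libraries (SD, n = 3 each). Its difference of -0.22 had p = 0.1 in the exact two-sided permutation test, again the smallest possible. HIF1A (ENSG00000100644.17) spans 61695513 to 61748259 of chromosome 14 on the plus strand (hg38) and overlaps the antisense genes HIF1A-AS1 and HIF1A-AS2. EPAS1 (ENSG00000116016.14) spans 46293667 to 46386697 of chromosome 2, also on the plus strand.

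The beta subunits and co-activators were taken from a list of HIF subunits and partners. ARNT, the usual beta subunit, had a mean of 40.5 ± 0.861 in control and 40.2 ± 1.15 in knockdown cells (SD, n = 3 each), with a limma adjusted p of 0.867. ARNT2, a related beta subunit, was low and rose 2.51-fold, with means of 1.63 ± 0.181 and 4.09 ± 0.352 (SD, n = 3 per group; limma adjusted p = 3.79e-05). It had 56, 33 and 42 estimated reads in control libraries and 171, 132 and 84 in knockdown libraries. Only knockdown replicate 1, the deepest library, reached the 150 estimated reads that every listed gene has in some library. A gene this low in control cells could be listed only if higher in knockdown cells. The part of this selection in the rise of ARNT2 was not tested. Of 11 listed genes among these subunits and partners, 3 rose, ARNT2 included, 4 fell and 4 passed in neither direction. Their median log2 fold change was -0.01. Among all genes, 33% were called higher and 27.8% lower. PKM and RUVBL2 rose 1.15-fold and 1.08-fold, and the RUVBL2 call was lost without knockdown replicate 1. The 4 that fell were NPAS2, which encodes a related clock factor (1.32-fold), the acetyltransferases EP300 (1.26-fold) and CREBBP (1.11-fold), which act as HIF co-activators, and the chromatin remodeller SMARCA4 (1.19-fold). The CREBBP call was lost without control replicate 3.

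The prolyl hydroxylases differed from one another. EGLN1 encodes PHD2, the main oxygen sensor for HIF-1 alpha and itself a HIF target. It was 45.6, 48.2 and 48.3 in control libraries and 72.4, 67.2 and 72.5 in knockdown libraries, with a clear gap between the groups. The ratio of means was 1.49 and the log2 fold change 0.57 (SE 0.05, limma adjusted p = 5.38e-08). EGLN3 encodes PHD3, in many cells among the most hypoxia-inducible of the 3 enzymes. It was 6.21, 4.32 and 5.59 in control and 5.39, 4.46 and 5.01 in knockdown libraries, and the ranges overlap fully. Its log2 fold change of -0.10 (SE 0.15, limma adjusted p = 0.582) had a 95% interval from -0.41 to 0.21, which a difference as large as that of EGLN1 would lie outside. EGLN3 rested on 100 to 212 estimated reads a library, few enough that counting error adds to its spread. The log2 ratio of EGLN1 to EGLN3 was 3.16 ± 0.305 in control and 3.84 ± 0.0859 in knockdown libraries (SD, n = 3 each; exact two-sided permutation p = 0.1). EGLN2, which encodes PHD1, was 34.2 ± 2.29 and 38.5 ± 2.56 (SD, n = 3 each). It was called (limma adjusted p = 0.0363) with overlapping groups, and the call was lost under either rescaling of the libraries (limma adjusted p = 0.0718 and 0.0702), with limma-voom (0.0535), with the replicate number as a block (0.0632), against a fold of 1.5, and without control replicate 1 or 2 or knockdown replicate 1 or 2 (0.0645 to 0.175). The transmembrane prolyl hydroxylase gene P4HTM fell 1.18-fold. EGLN1 (ENSG00000135766.9) spans 231363751 to 231422287 of chromosome 1 on the minus strand. EGLN3 (ENSG00000129521.15) is annotated from 33924227 to 34462774 of chromosome 14 on the minus strand, a span that also covers SPTSSA on the same strand. SPTSSA, given for that overlap, fell from 142 ± 1.60 to 119 ± 2.22 (SD, n = 3 each), a log2 fold change of -0.26 with a limma adjusted p of 1.57e-05. The RefSeq start used for the EGLN3 promoter, at 33951074, lies far inside this span.

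Downstream of hydroxylation, VHL, the substrate receptor of the ligase that degrades hydroxylated HIF alpha, fell 1.35-fold, from 176 ± 6.52 to 130 ± 4.55 (SD, n = 3 each; limma adjusted p = 1.33e-07). HIF1AN, which encodes the asparagine hydroxylase FIH that blocks co-activator binding, rose 1.13-fold (limma adjusted p = 0.00714). Of 22 listed genes of oxygen sensing and HIF turnover, 9 rose, 7 fell and 6 passed in neither direction (median log2 fold change 0.04). None changed 2-fold. Calls among all genes were 33% higher and 27.8% lower. LIMD1, a scaffold that joins PHD and VHL proteins, fell 1.32-fold, whereas its relative AJUBA rose 1.40-fold. Among the other ligase genes, SIAH2, a ligase for the prolyl hydroxylases, and USP20, a deubiquitinase, fell 1.22-fold and 1.24-fold. The VHL ligase subunits ELOB and RBX1 rose 1.15-fold each, and OS9 rose 1.18-fold. The RBX1 call was lost without control replicate 2, control replicate 3 or knockdown replicate 1.

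The surface carbonic anhydrases went in opposite directions. Both enzymes hydrate carbon dioxide outside the cell and help tumour cells to manage acid. CA9, among the most hypoxia-specific HIF-1 targets, was 9.36, 6.43 and 7.47 in control and 19.4, 19.3 and 19.7 in knockdown libraries. The knockdown libraries were nearly equal and all more than 2 times any control library. The ratio of means was 2.51 and the log2 fold change 1.29 (SE 0.11, limma adjusted p = 4.46e-08). CA12 was 79.0, 72.8 and 78.5 in control and 44.4, 44.7 and 47.7 in knockdown libraries. Every knockdown library lay well below every control library, and CA12 fell 1.68-fold (log2 fold change -0.75, SE 0.05, limma adjusted p = 2.62e-09). The log2 ratio of CA9 to CA12 went from -3.32 ± 0.220 to -1.23 ± 0.0442 (SD, n = 3 each), with p = 0.1 in the exact two-sided permutation test. Of the other 13 genes of the family that were looked up, CA5B was listed, at 5.96 to 8.89 with overlapping groups. CA9 (ENSG00000107159.14) spans 35673928 to 35681159 of chromosome 9 on the plus strand and overlaps ARHGEF39 on the other strand. ARHGEF39, given for that overlap, was 8.80 ± 0.130 in control and 9.77 ± 0.435 in knockdown cells (SD, n = 3 per group), with a limma adjusted p of 0.206. CA12 (ENSG00000074410.14) spans 63321378 to 63381846 of chromosome 15 on the minus strand.

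Both secreted hormones of the set rose. STC1 encodes stanniocalcin 1, a glycoprotein hormone of calcium and phosphate handling that hypoxia induces in many tumour cells. Its values were 9.96, 11.3 and 11.3 in control and 43.4, 43.1 and 44.1 in knockdown libraries, a separation of about 4-fold with little spread. It had the largest increase of the 10, with a log2 fold change of 1.96 (SE 0.07, limma adjusted p = 8.17e-13), and ranked 61 among all genes ordered from the largest increase. Its paralog STC2 rose 1.13-fold, from 647 ± 3.60 to 732 ± 23.6 (SD, n = 3 each). ADM encodes adrenomedullin, a vasodilator peptide. It was 6.85, 5.35 and 5.21 in control and 14.1, 12.0 and 12.5 in knockdown libraries. The groups were well apart, on 124 to 556 estimated reads a library. The ratio of means was 2.22 (log2 fold change 1.09, SE 0.12, limma adjusted p = 6.78e-07). ADM2, which encodes the related peptide intermedin, fell 1.91-fold, from 36.9 ± 1.15 to 19.3 ± 0.676 (SD, n = 3 each). RAMP1, a subunit of receptors of this peptide family, rose 1.29-fold, but the receptor genes CALCRL, RAMP2 and RAMP3 were not listed. STC1 (ENSG00000159167.12) is on chromosome 8, and ADM (ENSG00000148926.10) spans 10305073 to 10307397 of chromosome 11 on the plus strand.

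BNIP3 and NDRG1, stress genes that act inside the cell, rose as well. BNIP3, a mitochondrial protein that promotes mitophagy, has the promoter with 6 core matches printed above. Its values were 46.3, 45.4 and 47.1 in control and 94.0, 94.6 and 104 in knockdown libraries. Each knockdown library was about 2 times each control library, and knockdown replicate 3 was the highest. Its log2 fold change of 1.07 (SE 0.05) had a limma adjusted p of 1.87e-11. GENCODE 29 names 39 BNIP3 pseudogenes, none of them listed in the table, so reads of these copies could be counted either way. HIF1A, EGLN1 and EGLN3 each have 1. BNIP3L, the paralog also known as NIX, rose 1.37-fold, from 81.6 ± 1.62 to 111 ± 1.53 (SD, n = 3 each; limma adjusted p = 7.24e-08). BNIP1 and FUNDC1, another mitophagy receptor gene, rose 1.20-fold and 1.19-fold, and BNIP2 fell 1.18-fold. The FUNDC1 call was lost without control replicate 1, control replicate 3 or knockdown replicate 3.

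NDRG1, a stress-induced cytoplasmic protein linked to differentiation and metastasis suppression in prostate cancer, is a target of HIF and also of other regulators. Its values were 901, 899 and 927 in control and 1596, 1588 and 1559 in knockdown libraries, tight groups far apart. The ratio of means was 1.74 and the log2 fold change 0.80 (SE 0.03, limma adjusted p = 7.83e-13). Its paralogs NDRG3 and NDRG4 were not called (limma adjusted p = 0.486 and 0.974). NDRG1 (ENSG00000104419.17) is on chromosome 8, and BNIP3 (ENSG00000176171.12) spans 131967684 to 131981967 of chromosome 10 on the minus strand.

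**Figure D3:**
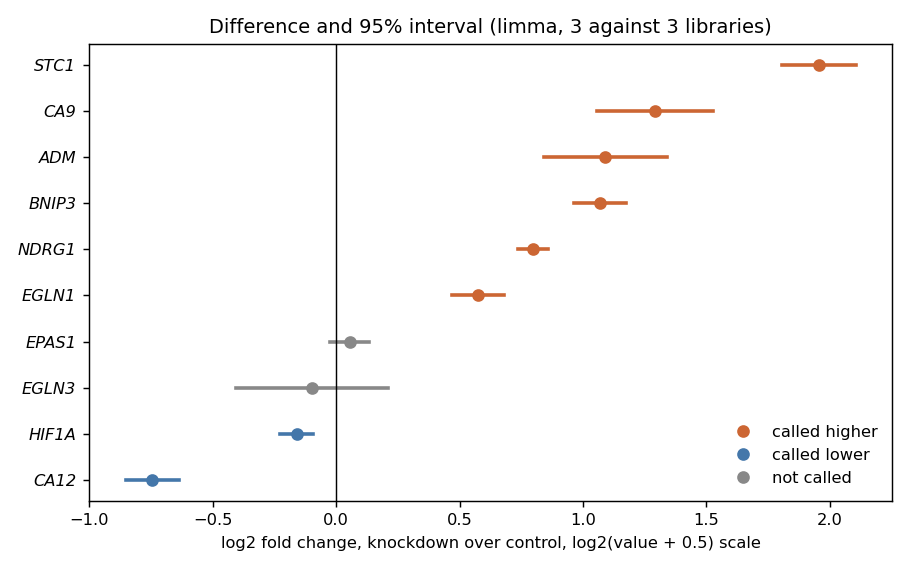
Log2 fold change of each gene, knockdown over control, on the log2(value + 0.5) scale (x axis), with its 95% interval from limma (3 against 3 libraries). STC1 at 1.96 is highest and CA12 at -0.75 lowest, and the intervals of EPAS1 and EGLN3 include 0.

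Levels between genes can be compared only per length, so each value was divided by the gene's total exon length in GENCODE 29. On this scale of value per kb, the control order was NDRG1 (92.5 ± 1.62), HIF1A (88.9 ± 1.52), EPAS1 (23.8 ± 0.658), CA12 (10.5 ± 0.467), BNIP3 (8.68 ± 0.162), EGLN1 (6.52 ± 0.211), CA9 (4.64 ± 0.888), STC1 (2.62 ± 0.191), ADM (2.14 ± 0.335) and EGLN3 (0.730 ± 0.131), each SD with n = 3. Among neighbours in this order, the mean ± SD ranges overlapped for STC1 and ADM and for no other pair. In knockdown cells STC1 reached 10.5 ± 0.122 and CA9 11.7 ± 0.123, and both then lay above CA12 at 6.23 ± 0.251 (SD, n = 3 each). The exon length counts every annotated isoform, so a gene expressed from a short isoform is placed too low.

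**Figure D4:**
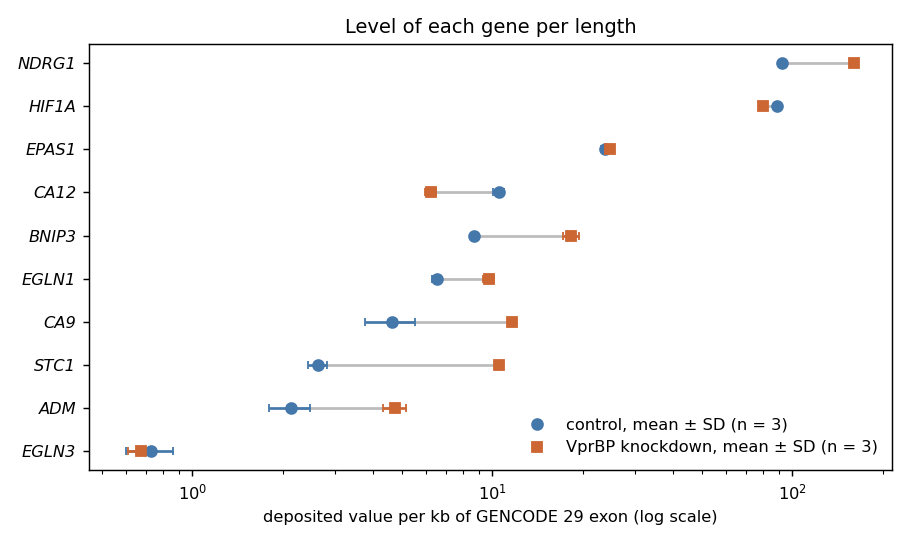
Deposited value per kb of exon (x axis, log scale) for each of the 10 genes, as mean ± SD over 3 control libraries (blue circles) and 3 knockdown libraries (orange squares). CA12 is above BNIP3, EGLN1, CA9 and STC1 in control cells and below all 4 in knockdown cells.

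In control libraries the spread was widest for the genes with fewest reads. The coefficient of variation in control libraries was 1.71% to 4.45% for HIF1A, EPAS1, CA12, BNIP3, EGLN1 and NDRG1 and 7.28% for STC1. For ADM, EGLN3 and CA9, with 100 to 304 estimated reads in the control libraries, it was 15.7% to 19.1%. The knockdown libraries did not show this order: the coefficient of variation was 1.06% for CA9, 1.16% for STC1, 5.83% for BNIP3, 8.77% for ADM and 9.50% for EGLN3.

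Other HIF targets, listed as outside glycolysis, were mostly higher too. Of 46 listed genes from a list of 59, 29 rose, 8 fell and 9 passed in neither direction. Among all genes, 33% were called higher and 27.8% lower. The 29 include ENO2, which encodes a glycolytic enolase and rose 1.86-fold. The median log2 fold change of the 46 was 0.30. IGFBP3, which binds insulin-like growth factors, rose 3.06-fold to 163 ± 3.57 (SD, n = 3), the LIM domain gene CSRP2 rose 2.84-fold, and the glycogen branching enzyme gene GBE1 rose 2.49-fold. VEGFA, the main angiogenic factor under HIF control, named after its values were seen, rose 1.35-fold, from 405 ± 10.5 to 546 ± 11.2 (SD, n = 3 each; limma adjusted p = 8.14e-09). The 4 largest falls were KLHL24 (2.65-fold), DDIT4, an inhibitor of mTORC1 signalling (1.83-fold, from 308 ± 7.82 to 168 ± 8.49, SD, n = 3 each), the MYC antagonist gene MXI1 (1.58-fold) and the receptor gene MET (1.40-fold). Of the 19 glycolytic HIF targets, 14 rose, 3 fell and 2 were not called. PFKFB4 and SLC2A1 rose most there, 2.60-fold and 2.18-fold, and PDK3 fell by 0.57 on the log2 scale.

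**Figure D5:**
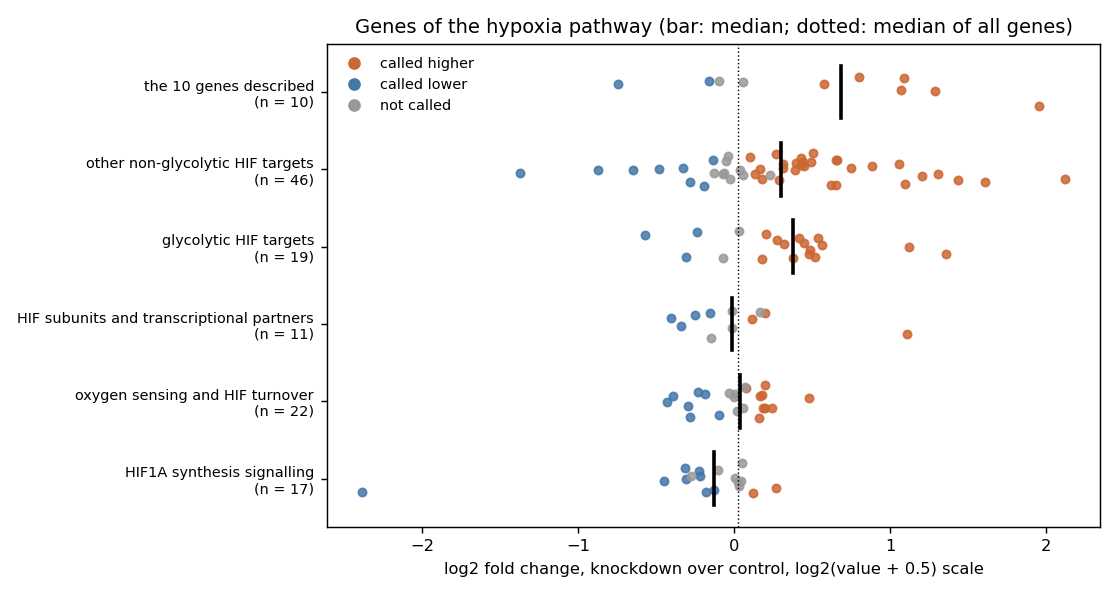
Log2 fold change of each gene, knockdown over control, on the log2(value + 0.5) scale (x axis), in the 10 genes described and 5 lists of the hypoxia pathway, with black bars at each list's median and a dotted line at the median of all genes, 0.02. The target lists have medians of 0.30 and 0.38, against -0.01, 0.04 and -0.13 for partners, turnover genes and HIF1A synthesis signalling.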

How the data were processed

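RNA from 6 PC3 samples, 3 per group, was sequenced from total RNA with a SMARTer mRNA kit, per the labels' protocols. The authors deposited gene values as a scaled signal, although the table is named raw counts: the 75th percentile was 79.0 in every library, and low values are multiples of a step of 0.0254 to 0.0439, the value of 1 read. Between 54.8% and 64.8% of values were whole multiples within 0.02 reads, so no count model was used in place of limma, although one had been foreseen if the table held whole counts. Estimated reads are the value divided by the step. Partek and hg38 are named per the submitters' processing notes; aligner, strand setting and scaling: not given in the sources used here. Each gene in the table had 150 or more estimated reads in at least 1 library. Genes below that were not analysed here.

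Genes were tested with limma 3.58.1 (R 4.3.3, trend, two-sided) on log2(value + 0.5) over all 12227 genes with Benjamini-Hochberg adjustment, and called at an adjusted p under 0.05. This scale understates changes of low genes. Folds are ratios of group means. The test was also run on simulated data with few changed genes and the same spread for every gene. Here 60.9% of genes were called, so that run does not show how reliable these calls are. Coordinates are those of the deposited table with the end reduced by 1, and exon lengths and overlaps come from GENCODE 29. Promoter sequences and starts are from RefSeq.

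The 10 genes and the lists were chosen with earlier results of these data known. Beside the 10, the text names DCAF1, paralogs and core regulators, and up to 4 called genes per direction and list with the largest change and a mean of at least 1. Some genes that meet it are not reported here. Alternatives were 2 rescalings, pseudocounts of 0.1 and 2, a mean of at least 5, limma-voom, a test against a 1.5-fold change, a replicate block and leaving out each library.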

Additional observations from a re-analysis of the deposited data

How the results depend on the processing

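Under 14 alternatives, STC1, CA9, ADM, BNIP3 and NDRG1 were called higher in all 14, and EGLN1, CA12 and HIF1A kept their calls in 13. The exception for these 3 was limma's treat test against a fold of 1.5, where CA12 had an adjusted p of 0.055 and HIF1A and EGLN1 of 1. With that test, which asks for a larger change by construction, 5 of the 10 genes were called higher and 0 lower (1 lower at an unadjusted p under 0.05). limma-voom without a fold minimum called 6 higher and 2 lower. The treat test called 296 genes higher and 355 lower of all, and 9 of the 46 other targets higher and 2 lower. Leaving out each library in turn gave 6 higher and 2 lower of the 10 genes each time. It gave 3643 to 4017 higher and 3054 to 3388 lower of all genes. Of the 46 other targets, 28 to 30 were higher and 7 to 8 lower. The sign of EGLN3, never called, turned without control replicate 1 (log2 fold change 0.00591, in a range from -0.233). That of ARNT turned without knockdown replicate 3 (0.0118, in a range from -0.0288). NDRG4 turned under median-ratio scaling (-0.0199), equal sums (-0.0175) and limma-voom (-0.0498), and ranged from -0.0676 to 0.0838 when 1 library was left out. Rescaling moved the median log2 fold change of all genes from 0.02 to 0.00 at most and the share of higher calls from 54.3% to 50.04% at the lowest.

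The deviations of same-numbered libraries from their group means correlated at 0.018, -0.157 and -0.168 over genes. Those of differently numbered libraries correlated at -0.081 to 0.185. Such correlations show no pairing by replicate number but cannot exclude that same-numbered libraries were handled together. With the replicate block, 6 of the 10 genes were called higher and 2 lower, and of all genes 3826 and 3216. Depth limits EGLN3 most, at 100 to 212 estimated reads a library.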

Other observations

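Genes that set HIF1A translation and transcription were looked up as well, because growth factor signalling through mTORC1 is a known input to HIF-1 alpha synthesis. Of 17 listed genes, 2 rose, 8 fell and 7 passed in neither direction (median log2 fold change -0.13). Calls among all genes were 33% higher and 27.8% lower. DEPTOR, which encodes an inhibitor within mTOR complexes, fell 6.28-fold, from 12.5 ± 0.901 to 1.998 ± 0.215 (SD, n = 3 each; limma adjusted p = 1.53e-10). It had 392, 315 and 288 estimated reads in control libraries and 72, 60 and 51 in knockdown libraries. With every listed gene reaching 150 in some library, a gene this low in knockdown cells could be listed only if higher in control cells. The part of this selection in the fall of DEPTOR was not tested. MTOR itself fell, from 122 ± 1.32 to 98.0 ± 3.62 (SD, n = 3 each), and TSC1, a brake on the pathway, fell by 0.31 on the log2 scale. NFKB1, a subunit of NF-kB, which can activate HIF1A transcription, rose 1.21-fold (limma adjusted p = 0.000422). The translation factor gene EIF4E rose 1.09-fold, a call that both rescalings, limma-voom, treat, the replicate block and 4 of the 6 fits without 1 library did not keep.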
